A study of Mus musculus with 7 samples.

Results

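The genes followed here are the enzymes and transporters that move glucose through glycolysis, the Rapoport shunt and the pentose phosphate pathway, in mouse erythroblasts with and without Sod2, which encodes the manganese superoxide dismutase of mitochondria. The list holds 35 genes taken for their place in these pathways. A gene was read from the probe sets whose annotation names that gene alone, and the probe set with the highest mean over the 7 arrays stood for it. By this rule 30 of the 35 genes were measured, through 69 probe sets, among 18193 genes and 45037 probe sets in all. Gapdh was read only from 3 control probe sets and is described separately. Gpi1, Pfkfb1, Eno1 and G6pdx had no probe set matched to them alone in the annotation used and were not analysed here.

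A red cell that has shed its mitochondria makes its ATP from glycolysis, while the erythroblast that precedes it still has mitochondria to use. The Rapoport shunt is a side path of glycolysis, prominent in red cells, whose product bisphosphoglycerate lowers the affinity of hemoglobin for oxygen. The oxidative branch of the pentose phosphate pathway makes NADPH, with which red cells keep glutathione reduced, and the non-oxidative branch returns its pentoses to glycolysis. Inherited defects of several of these enzymes, glucose-6-phosphate dehydrogenase and pyruvate kinase among them, cause hemolytic anemia.

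Erythroblasts came from marrow of irradiated C57BL/6 mice that carried the Ly5.1 allele and had been reconstituted with fetal liver cells of Sod2+/+ or Sod2-/- littermates from heterozygous B6-Sod2tm1Cje matings. Donors of both genotypes were embryos at E13.5 to E16.5, and hosts, female by the study's methods, were 11 to 15 weeks old at transplant and received 1050 rad of gamma irradiation in a split dose. The hosts' age when marrow was taken was not found in the labels or methods. Cells of both genotypes were sorted as TER-119+ CD71+, a gate that spans several erythroblast stages and does not separate donor from surviving host cells. The study reports a larger share of immature, basophilic erythroblasts in Sod2-/- marrow. The part of such a stage difference in the values that follow was not tested. The Sod2-/- donor cells lacked Sod2 in every hematopoietic lineage, and the hosts' other tissues had it. RNA was measured on 4 Sod2+/+ arrays (replicates 17, 29, 33 and 37) and 3 Sod2-/- arrays (replicates 31, 35 and 39), which the series calls biological replicates. Another Sod2-/- array was not analysed here.

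Values are log2 signals from RMA (robust multi-array averaging), with which the authors corrected background, normalized the arrays and summed up the probes of each set. Array medians ran from 4.45 to 4.54, and the upper 5% of probe sets began at 8.42 to 8.71 on Sod2+/+ and at 8.20 to 8.42 on Sod2-/- arrays. Sod2 itself averaged 8.43 ± 0.20 (SD, n = 4) without the deletion and 8.39 ± 0.27 (SD, n = 3) with it, on its brightest probe set, and none of its 4 probe sets passed the test, with log2 fold changes from -0.10 to 0.09. By the study's account some of them lie outside the deleted exon, so they do not check the genotype. Of 20 erythroid marker genes 16 were measured and 0 were called either way. Their levels lay between 10.02 (Epb42) and 13.00 (Alas2) in Sod2+/+ samples apart from Hba-a1, an alpha globin gene whose probe set sat at 4.33, near the array median. The erythroid markers that differed most were Kel, a blood group protein (log2 fold change 0.34, adjusted p = 0.0772), and Sptb, the red cell beta-spectrin (0.27, adjusted p = 0.185).

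Sod2-/- arrays stood apart in markers of other marrow cells. All of them did so for B cell and for eosinophil and mast cell genes, and only some for neutrophil and macrophage genes. The summed signal of 14 neutrophil genes was 37340 to 47110 on Sod2+/+ arrays, and 37670, 17980 and 24910 on Sod2-/- replicates 31, 35 and 39. All 14 were lowest on replicate 35. None was called, 12 had an unadjusted p under 0.05, the median log2 fold change was -0.74, and Camp (-1.05, adjusted p = 0.0646) and Mmp8 (-1.03, adjusted p = 0.149), both proteins of neutrophil granules, differed most. Without Sod2-/- replicate 31, 10 of the 14 were called lower at a median of -1.08, and without replicate 35 the median was -0.44 with 0 calls. Of 14 B cell genes 8 were called lower, led by Cd79a (-1.78, adjusted p = 0.00284), Spib (-1.68, adjusted p = 0.00584) and Cd79b (-1.58, adjusted p = 0.00543), and their sum was 985.1 to 1170 in Sod2+/+ and 533.2 to 680.9 in Sod2-/- samples. Of 8 eosinophil and mast cell genes 3 were called lower, Epx (-1.87, adjusted p = 0.0222), Prg2 (-1.83, adjusted p = 0.0286) and Mcpt8 (-1.35, adjusted p = 0.0258), with sums of 1107 to 2379 and 429.9 to 701.5. Macrophage genes, 13 measured and 0 called, summed to 1712 on Sod2-/- replicate 39 and to 496 to 651.7 on the other arrays, with C1qc (1.70, adjusted p = 0.311) and C1qb (1.27, adjusted p = 0.395) in front. Among 9 megakaryocyte genes Gp9 (-0.56, adjusted p = 0.110) and Itga2b (0.35, adjusted p = 0.294) differed most, among 6 T and NK cell genes Nkg7 (-0.69, adjusted p = 0.173) and Cd2 (-0.27, adjusted p = 0.221), and none of these was called. Without single arrays 7 to 8 of the B cell genes and 0 to 3 of the eosinophil and mast cell genes were called lower, the latter count being 0 without Sod2+/+ replicates 29 or 37 and without Sod2-/- replicates 35 or 39. The part that such cells had in the values that follow was not tested. In bulk RNA fewer cells of a type and less RNA per cell cannot be told apart.

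Of the 30 genes, 3 were called lower in Sod2-/- erythroblasts and 0 were called higher, where a call is an adjusted p below 0.05 in limma over all probe sets. The called genes were Pgls, the 6-phosphogluconolactonase of the oxidative pentose phosphate branch, Tpi1, the triose phosphate isomerase of glycolysis, and Pfkl, the liver-type subunit of phosphofructokinase. Over all genes 4.47% were called lower and 0.412% higher. At an unadjusted p under 0.05, 13 of the 30 were lower and 0 higher, against 3352 and 1215 of the 18193 genes. The log2 fold change, Sod2-/- minus Sod2+/+ throughout, was below 0 in 23 genes and above 0 in 7, with a median of -0.30 against 0.02 for all genes.

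The genotypes did not overlap, every Sod2-/- array being below every Sod2+/+ array, in 10 of the 30 genes. These were Slc2a3, Hk2, Pfkl, Pfkm, Tpi1, Pgls, Pgd, Rpia, Tkt and Taldo1. The reverse held for Slc2a1 alone. Over all genes 14.8% did not overlap with Sod2-/- lower and 7.19% with Sod2-/- higher.

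Signal level and genotype difference went together on these arrays. At a mean signal of 8 or more the median log2 fold change was -0.25 for 1874 genes and -0.39 for the 11 listed ones among them. From 6 to 8 the medians were -0.21 over 3630 genes and -0.60 over 10 listed genes, and all 3 calls fell there, beside 442 lower calls among the 3630. Below 6 they were 0.05 over 12687 genes and 0.03 over 9 listed genes. From 6 to 8, 4 of the 10 listed genes did not overlap with Sod2-/- lower, against 1205 of 3630 genes. At 8 or more it was 5 of 11 against 669 of 1874, and below 6 it was 1 of 9 against 825 of 12687. Lower at an unadjusted p under 0.05 were 5 of 10 (1530 of 3630 genes), 6 of 11 (862 of 1874) and 2 of 9 (960 of 12687), in the same order.

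**Figure D1:**
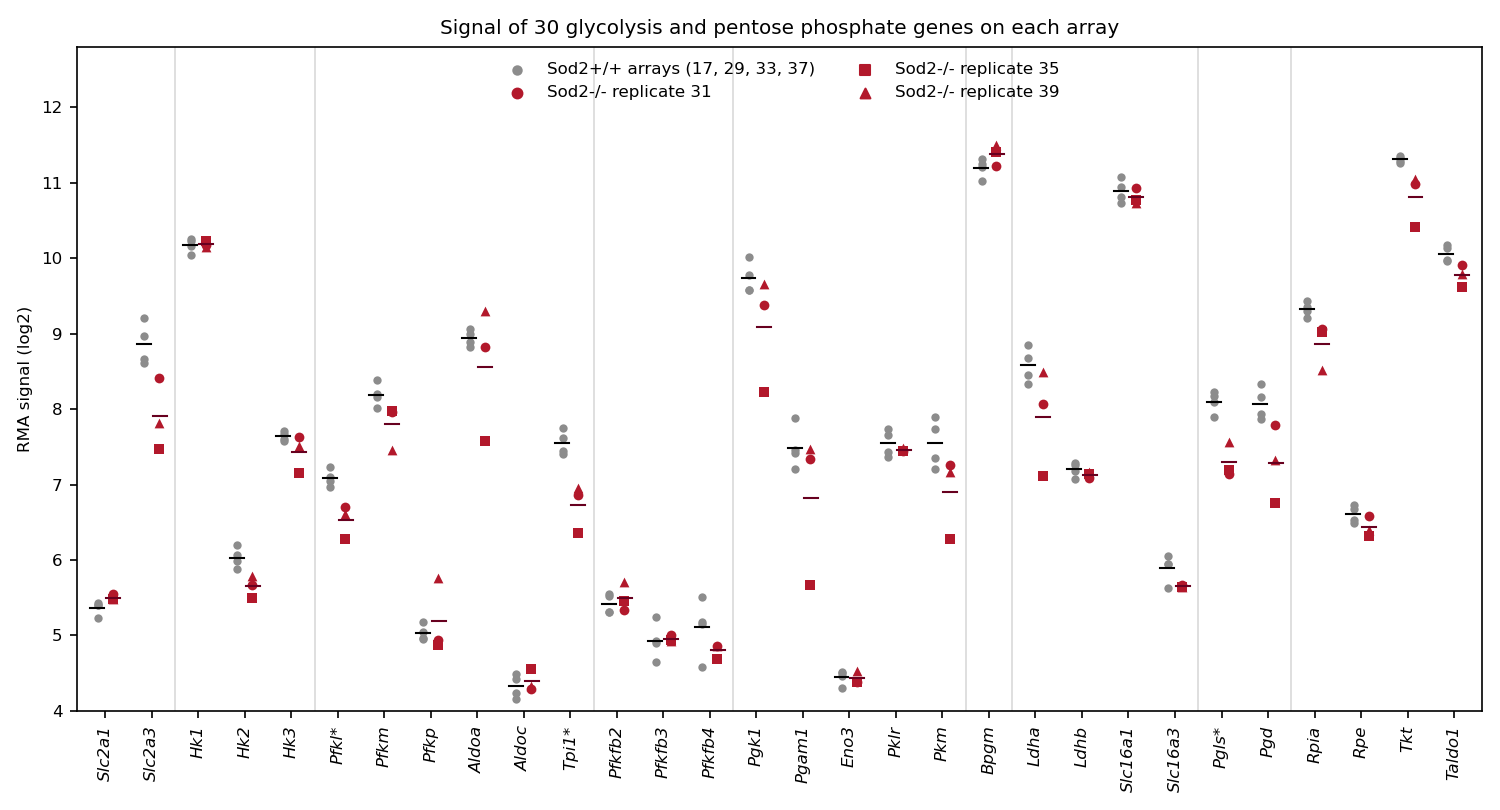
RMA signal (log2, vertical axis) of the 30 genes on each of 7 arrays, ordered by role with grey lines between roles. Grey points are Sod2+/+ arrays, red circles, squares and triangles are Sod2-/- replicates 31, 35 and 39, bars are group means, and an asterisk marks an adjusted p below 0.05. The red squares of replicate 35 are the lowest points of 15 genes, among them Pgam1, Aldoa, Pgk1 and Ldha, while Bpgm, Hk1 and Slc16a1 show overlapping groups.

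Glucose enters the cell through facilitative transporters. Slc2a1, the transporter GLUT1, had log2 signals of 5.23 to 5.43 in Sod2+/+ and 5.48 to 5.54 in Sod2-/- samples, a difference of 0.13 that did not pass (adjusted p = 0.354). Slc2a3, the high-affinity transporter GLUT3, had the largest difference of the 30 genes. Its log2 signal was 8.97, 8.66, 8.61 and 9.21 on Sod2+/+ replicates 17, 29, 33 and 37, and 8.41, 7.48 and 7.82 on Sod2-/- replicates 31, 35 and 39. The groups did not overlap, replicate 35 being lowest and replicate 31 closest to the Sod2+/+ samples, and the log2 fold change of -0.96 (SE 0.22) stayed above the threshold (adjusted p = 0.0560). It passed with trend and robust estimation (adjusted p = 0.0319), among probe sets brighter than the median (0.0270) and without Sod2-/- replicate 31 (0.0286), in a range from 0.0270 to 0.727 over all alternatives. The other Slc2a3 probe sets gave -0.90 (adjusted p = 0.108), 0.09 and 0.05, the last pair at signals below 4, under the array median.

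Hexokinases trap glucose in the cell by phosphorylating it. Hk1, the isoform of red cells, did not differ by more than its spread. Its log2 signals were 10.26, 10.23, 10.05 and 10.17 in Sod2+/+ and 10.18, 10.22 and 10.15 in Sod2-/- samples, with a log2 fold change of 0.01 (SE 0.07, adjusted p = 0.976), and its second probe set gave 0.13. Hk2, the inducible isoform, ran from 5.88 to 6.20 and from 5.50 to 5.78 without overlap (log2 fold change -0.38, adjusted p = 0.0759). Hk3 had a log2 fold change of -0.21 (adjusted p = 0.356), with overlapping groups and its lowest signal on replicate 35. One further probe set that the annotation shares between Hk1 and the ribosomal protein gene Rpl17 was left out of the Hk1 values.

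Phosphofructokinase commits the sugar to glycolysis. Pfkl (chromosome 10), the liver-type subunit, had log2 signals of 7.05, 7.09, 6.96 and 7.24 on the Sod2+/+ arrays in the order above and of 6.71, 6.28 and 6.61 on Sod2-/- replicates 31, 35 and 39. The groups were separate, with replicate 35 lowest, and the log2 fold change was -0.55 (SE 0.11, adjusted p = 0.0393), a 1.47-fold difference. Its other probe sets gave -0.15 (adjusted p = 0.556) and -0.02 (adjusted p = 0.928), and with the mean of the 3 the call was lost (-0.24, adjusted p = 0.0926). Pfkm, the muscle-type subunit, also did not overlap between genotypes, at 8.02 to 8.38 against 7.46 to 7.97 (log2 fold change -0.39, adjusted p = 0.168). Pfkp, the platelet-type subunit, had a log2 fold change of 0.15 (adjusted p = 0.727) and its highest signal, 5.76, on Sod2-/- replicate 39, the array with the high macrophage genes.

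The bifunctional Pfkfb enzymes set the level of fructose bisphosphate that activates phosphofructokinase. None of the 3 measured was called. Pfkfb2 had a log2 fold change of 0.08 (adjusted p = 0.751), Pfkfb3 of 0.03 (adjusted p = 0.936) and Pfkfb4 of -0.30 (adjusted p = 0.422). All 3 were dim, with mean log2 signals from 4.94 to 5.46, and their groups overlapped.

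Aldolase splits the hexose and triose phosphate isomerase interconverts the products. Tpi1 (chromosome 6) had log2 signals of 7.61, 7.41, 7.45 and 7.75 on the Sod2+/+ arrays and of 6.87, 6.36 and 6.95 on the Sod2-/- arrays. All 3 Sod2-/- arrays lay below the Sod2+/+ range, replicate 35 furthest, and the log2 fold change was -0.83 (SE 0.15, adjusted p = 0.0289), a 1.78-fold difference. Its dimmest probe set gave -1.19 (SE 0.25, adjusted p = 0.0441) and the remaining one -0.64 (SE 0.21, adjusted p = 0.141), so all 3 had the same sign. The brightest has the suffix that Affymetrix gives to sets whose probes may also match other transcripts. Aldoa, the main aldolase of red cells, had a log2 fold change of -0.38 (SE 0.33, adjusted p = 0.590) with Sod2-/- signals of 8.82, 7.57 and 9.30, so that replicates 35 and 39 lay on either side of the Sod2+/+ range of 8.83 to 9.07. Aldoc, the brain-type aldolase, was dim at 4.35 and had a log2 fold change of 0.06 (adjusted p = 0.796).

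The lower part of glycolysis, from phosphoglycerate kinase to pyruvate kinase, had the most negative median of the glycolytic steps, -0.65 over 5 genes, and 0 calls. Pgk1, which makes the first ATP, had log2 signals of 9.78, 9.58, 9.58 and 10.01 in Sod2+/+ and of 9.38, 8.23 and 9.66 in Sod2-/- samples (log2 fold change -0.65, SE 0.30, adjusted p = 0.280). Pgam1, the phosphoglycerate mutase, had 7.41, 7.45, 7.21 and 7.88 against 7.34, 5.67 and 7.47 (-0.66, SE 0.40, adjusted p = 0.407). Pkm, the pyruvate kinase of most tissues, had 7.74, 7.35, 7.20 and 7.89 against 7.25, 6.28 and 7.17 (-0.65, SE 0.25, adjusted p = 0.203). In each of these genes the groups overlapped and replicate 35 was lowest. Without it the log2 fold changes were -0.22 for Pgk1, -0.08 for Pgam1 and -0.33 for Pkm. Eno3, the muscle enolase, was dim at 4.44 and had a log2 fold change of -0.01 (adjusted p = 0.954).

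Pklr (chromosome 3) encodes the pyruvate kinase of red cells and liver, from separate starts in the same gene. Its brightest probe set had Sod2+/+ signals of 7.37 to 7.74 and Sod2-/- signals of 7.44 to 7.49 (log2 fold change -0.09, SE 0.10, adjusted p = 0.676), and the second gave -0.12 (adjusted p = 0.446). The third went from a mean of 6.59 to 5.91, a log2 fold change of -0.68 (SE 0.10, adjusted p = 0.0213). The probe sets of Pklr therefore differed among themselves, and with their mean the gene was called lower (-0.30, adjusted p = 0.0334). Which part of the transcript each set reads was not analysed here.

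Bpgm, the bisphosphoglycerate mutase that makes the product of the Rapoport shunt, is the erythroid enzyme of the list. Its log2 signals were 11.03, 11.31, 11.22 and 11.25 in Sod2+/+ and 11.22, 11.40 and 11.51 in Sod2-/- samples on the brightest probe set. The groups overlapped and the log2 fold change of 0.17 (SE 0.10) did not pass (adjusted p = 0.370). A second probe set was called higher, from a mean of 10.45 to 10.99 (log2 fold change 0.54, SE 0.10, adjusted p = 0.0286), and the third gave 0.15 (adjusted p = 0.623). All 3 had the same sign, opposite to that of Pgk1, whose step the shunt bypasses. Over the 69 probe sets of the list 6 were called lower and 1, this one of Bpgm, higher, against 2.83% and 0.566% of all probe sets. Besides the 3 genes named at the outset, the lower calls were the dimmest set of Tpi1, 1 of Pklr and 1 of Tkt. Of the 15 alternatives run for these sets, that of Bpgm passed in 7, with adjusted p from 0.0177 to 0.698, and lost its call without Sod2+/+ replicates 17, 29 or 37 and without Sod2-/- replicates 35 or 39. The set of Pklr passed in 7 (0.0130 to 0.663), that of Tkt in 6 (0.0235 to 0.659) and that of Tpi1 in 5 (0.0206 to 0.543), and no set changed sign.

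Lactate dehydrogenase regenerates NAD from pyruvate, and monocarboxylate transporters carry the lactate out. Ldha had log2 signals of 8.68, 8.45, 8.33 and 8.85 in Sod2+/+ and of 8.06, 7.11 and 8.50 in Sod2-/- samples (log2 fold change -0.69, SE 0.29, adjusted p = 0.231), again with replicate 35 lowest and replicate 39 inside the Sod2+/+ range. Ldhb, the subunit of oxidative tissues, had a log2 fold change of -0.07 (adjusted p = 0.654). Slc16a1, the lactate transporter MCT1, had signals of 10.73, 11.08, 10.81 and 10.95 against 10.93, 10.77 and 10.73 (-0.08, SE 0.10, adjusted p = 0.720), so the groups covered nearly the same range. Slc16a3, the transporter MCT4, had a log2 fold change of -0.25 (adjusted p = 0.225).

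**Figure D2:**
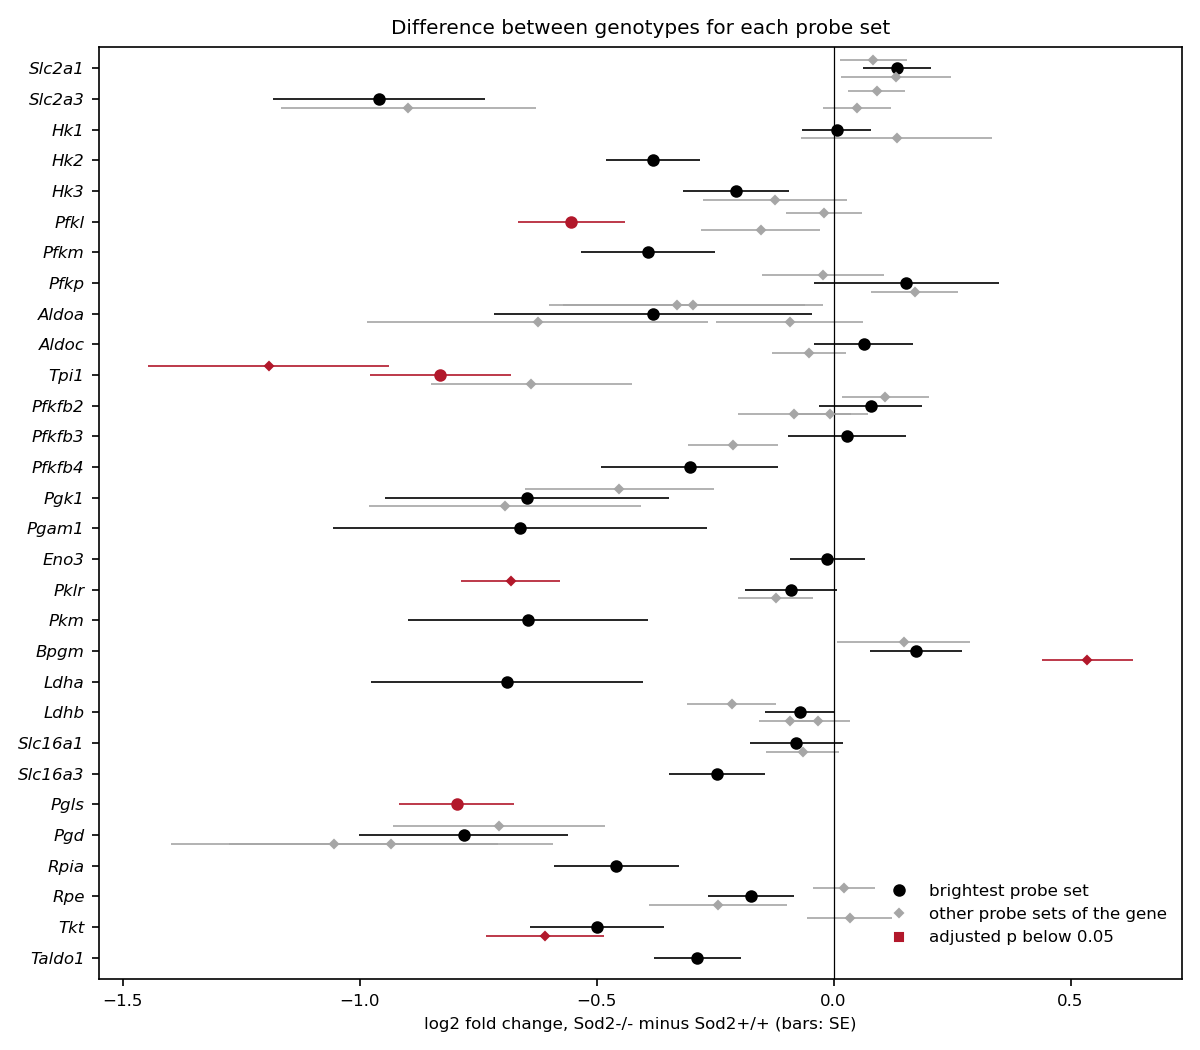
Log2 fold change (horizontal axis, Sod2-/- minus Sod2+/+, bars are SE) of all 69 probe sets, 1 line for each of 30 genes. Circles are the brightest set of a gene, small diamonds its others, and red marks an adjusted p below 0.05. Pgls, Tpi1 and Pfkl are red circles left of 0, and the sets of Pklr and Bpgm spread from -0.09 to -0.68 and from 0.15 to 0.54.

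The oxidative pentose phosphate branch had the most negative median of all roles, -0.79 over its 2 measured genes, and neither overlapped between genotypes. Pgls (chromosome 8), read by a single probe set, had log2 signals of 8.22, 8.18, 7.89 and 8.09 on the Sod2+/+ arrays and of 7.14, 7.20 and 7.57 on the Sod2-/- arrays. The log2 fold change was -0.80 (SE 0.12, adjusted p = 0.0217), a 1.74-fold difference and the smallest adjusted p of the 30 genes. Its lowest array was Sod2-/- replicate 31. On that array the neutrophil genes summed to 37670, inside their Sod2+/+ range, while the B cell genes (533.2) were at their lowest of the 7 arrays and the eosinophil and mast cell genes (701.5) lay below all Sod2+/+ arrays. The part of these cells in the Pgls value was not tested. Pgd, the 6-phosphogluconate dehydrogenase that makes the second NADPH, had signals of 8.16, 7.93, 7.86 and 8.33 against 7.79, 6.76 and 7.33 (-0.78, SE 0.22, adjusted p = 0.0926). Its other 3 probe sets gave -0.71 to -1.05 and were not called. Replicate 31 lay just below the Sod2+/+ samples for Pgd, and replicate 35 was lowest.

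All 4 genes of the non-oxidative branch had log2 fold changes below 0, and 0 were called. Tkt, the transketolase, had log2 signals of 11.29, 11.35, 11.27 and 11.33 in Sod2+/+ samples, where its spread was the smallest of the 30 genes (SD 0.04), and of 10.98, 10.41 and 11.04 in Sod2-/- samples. The groups were separate, at a log2 fold change of -0.50 (SE 0.14, adjusted p = 0.0929), and a second probe set was called (-0.61, SE 0.12, adjusted p = 0.0403) while the dimmest gave 0.03. Taldo1, the transaldolase, had 9.96, 10.18, 9.97 and 10.13 against 9.91, 9.62 and 9.79 (-0.29, SE 0.09, adjusted p = 0.130), separate by a narrow margin. Rpia, the ribose phosphate isomerase, had 9.20, 9.43, 9.30 and 9.35 against 9.06, 9.02 and 8.51 (-0.46, SE 0.13, adjusted p = 0.0987), with replicate 39 lowest. Rpe, the epimerase, had overlapping groups and a log2 fold change of -0.17 (adjusted p = 0.335).

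Promoters of 34 of the 35 genes had entries in the RefSeq promoter sequences of GRCm38.p6, as 53 windows of 250 bases before and 50 after a transcription start, since some genes have several starts whose windows may overlap. Those of the called genes are shown, with both starts of Pklr, whose probe sets differed. Those of Pgk1 and of the Ldha start that held ACGTG are also shown, both genes being among the 15 of 30 that were lowest on replicate 35. The Ldha window was picked for its ACGTG, so the windows shown cannot relate this motif to the signal on replicate 35. They are at chr8:71591934-71592233 (Pgls, plus strand), chr6:124814109-124814408 (Tpi1, minus), chr10:78009758-78010057 (Pfkl, minus), chr3:89135892-89136191 and chr3:89136373-89136672 (Pklr, plus), chrX:106186850-106187149 (Pgk1, plus) and chr7:46845554-46845853 (Ldha, plus). Each is written 5′ to 3′ on the strand of its gene. Capitals mark matches on either strand. The core of hypoxia response elements was searched as ACGTG and the E-box, which contains it, as CACGTG. The motif of GATA factors was AGATAA, and the core bound by the erythroid factor KLF1 was CACCC. The core of antioxidant response elements was TGACNNNGC.
Pgls: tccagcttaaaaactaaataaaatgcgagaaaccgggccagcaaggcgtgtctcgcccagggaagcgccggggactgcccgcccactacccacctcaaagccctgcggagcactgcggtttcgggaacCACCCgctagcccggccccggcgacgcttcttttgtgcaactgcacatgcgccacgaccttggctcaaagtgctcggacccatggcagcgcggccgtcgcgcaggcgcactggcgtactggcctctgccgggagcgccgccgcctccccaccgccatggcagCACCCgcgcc
Tpi1: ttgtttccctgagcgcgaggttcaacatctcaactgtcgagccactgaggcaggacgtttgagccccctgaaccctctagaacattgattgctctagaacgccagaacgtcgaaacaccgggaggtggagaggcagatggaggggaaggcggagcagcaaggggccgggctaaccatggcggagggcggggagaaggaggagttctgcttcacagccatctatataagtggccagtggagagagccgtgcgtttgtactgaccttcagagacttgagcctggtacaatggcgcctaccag
Pfkl: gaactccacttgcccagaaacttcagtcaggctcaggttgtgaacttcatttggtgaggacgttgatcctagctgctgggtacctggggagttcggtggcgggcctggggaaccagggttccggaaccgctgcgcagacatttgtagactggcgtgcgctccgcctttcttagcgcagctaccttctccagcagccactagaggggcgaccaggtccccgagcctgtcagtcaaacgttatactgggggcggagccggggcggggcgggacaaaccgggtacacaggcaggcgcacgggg
Pklr upstream start: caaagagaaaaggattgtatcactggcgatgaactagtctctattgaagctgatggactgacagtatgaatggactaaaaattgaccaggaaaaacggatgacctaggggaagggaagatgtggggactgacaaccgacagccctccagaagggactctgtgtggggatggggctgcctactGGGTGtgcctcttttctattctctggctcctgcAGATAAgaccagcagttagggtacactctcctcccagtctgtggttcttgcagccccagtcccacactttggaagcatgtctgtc
Pklr downstream start: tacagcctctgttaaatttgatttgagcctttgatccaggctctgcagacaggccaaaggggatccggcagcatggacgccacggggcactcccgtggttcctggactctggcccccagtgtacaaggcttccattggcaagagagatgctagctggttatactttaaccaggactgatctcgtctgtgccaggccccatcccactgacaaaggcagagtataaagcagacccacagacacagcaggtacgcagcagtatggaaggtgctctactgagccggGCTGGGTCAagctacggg
Pgk1: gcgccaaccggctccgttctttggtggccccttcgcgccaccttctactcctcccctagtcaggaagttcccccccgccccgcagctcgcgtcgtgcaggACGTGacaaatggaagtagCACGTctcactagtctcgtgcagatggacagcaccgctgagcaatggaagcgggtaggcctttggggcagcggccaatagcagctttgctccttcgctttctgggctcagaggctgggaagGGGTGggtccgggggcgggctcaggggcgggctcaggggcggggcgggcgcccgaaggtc
Ldha: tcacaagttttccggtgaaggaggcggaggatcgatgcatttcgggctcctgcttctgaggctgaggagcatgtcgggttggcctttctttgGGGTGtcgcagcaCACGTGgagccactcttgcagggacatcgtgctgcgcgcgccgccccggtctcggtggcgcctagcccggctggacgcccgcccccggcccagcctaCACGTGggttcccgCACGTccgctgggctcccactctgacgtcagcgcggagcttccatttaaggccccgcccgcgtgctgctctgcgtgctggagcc
Neither Tpi1 nor Pfkl held any of the 5 motifs, and Pgls held CACCC alone. The upstream Pklr window held AGATAA 35 bases and CACCC 68 bases before the start, and the downstream window held neither but had an antioxidant response core. Pgk1 held ACGTG at 2 places and the Ldha window shown at 3, of which 2 were E-boxes. The window of another Ldha start, at chr7:46846832-46847131, is not shown and held CACCC but neither ACGTG nor CACGTG. Among the 53 windows 39.6% held ACGTG, 9.43% CACGTG, 15.1% AGATAA, 67.9% CACCC and 11.3% TGACNNNGC, and among all 32851 windows of the table the shares were 19.6%, 7.15%, 11.2%, 57.5% and 12.4%. These matches describe letters in a window and no factor was measured at them.

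Across arrays the listed genes moved unevenly. Their mean deviation from the Sod2+/+ mean was -0.21 on Sod2-/- replicate 31, -0.56 on replicate 35 and -0.18 on replicate 39, against -0.09 to 0.10 on the Sod2+/+ arrays. Replicate 35 was the lowest of the 7 arrays for 15 of the 30 genes, against 3169 of 18193 genes. By signal level it was lowest for 7 of the 10 listed genes from 6 to 8 (1307 of 3630 genes) and for 6 of the 11 at 8 or more (751 of 1874). The number of listed genes at least 0.5 below their Sod2+/+ mean was 3, 12 and 6 on replicates 31, 35 and 39.

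Roles differed in this respect. Lower glycolysis deviated by -0.19, -0.95 and -0.09 on replicates 31, 35 and 39, and the lactate genes by -0.20, -0.48 and -0.13. The oxidative pentose phosphate genes deviated by -0.62, -1.11 and -0.64, below all Sod2+/+ arrays on each replicate. The same held for glucose transport (-0.14, -0.64 and -0.46), hexokinases (-0.12, -0.32 and -0.14), upper glycolysis (-0.26, -0.59 and -0.12) and the non-oxidative genes. The non-oxidative genes deviated by -0.19, -0.48 and -0.39, and Bpgm by 0.02, 0.20 and 0.30. On the same arrays neutrophil genes deviated by -0.11, -1.37 and -0.79 and erythroid genes by 0.15, 0.18 and -0.02. B cell genes were at -0.94, -0.69 and -0.71, and eosinophil and mast cell genes at -0.65, -0.89 and -0.78. T and NK cell genes were at -0.14, -0.14 and -0.09, macrophage genes at 0.04, 0.04 and 1.36 and megakaryocyte genes at 0.01, -0.03 and -0.07. The B cell, eosinophil and mast cell, and T and NK cell lists were below all Sod2+/+ arrays on all 3 Sod2-/- arrays. So were the roles named in that way, and a link between them was not tested.

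**Figure D3:**
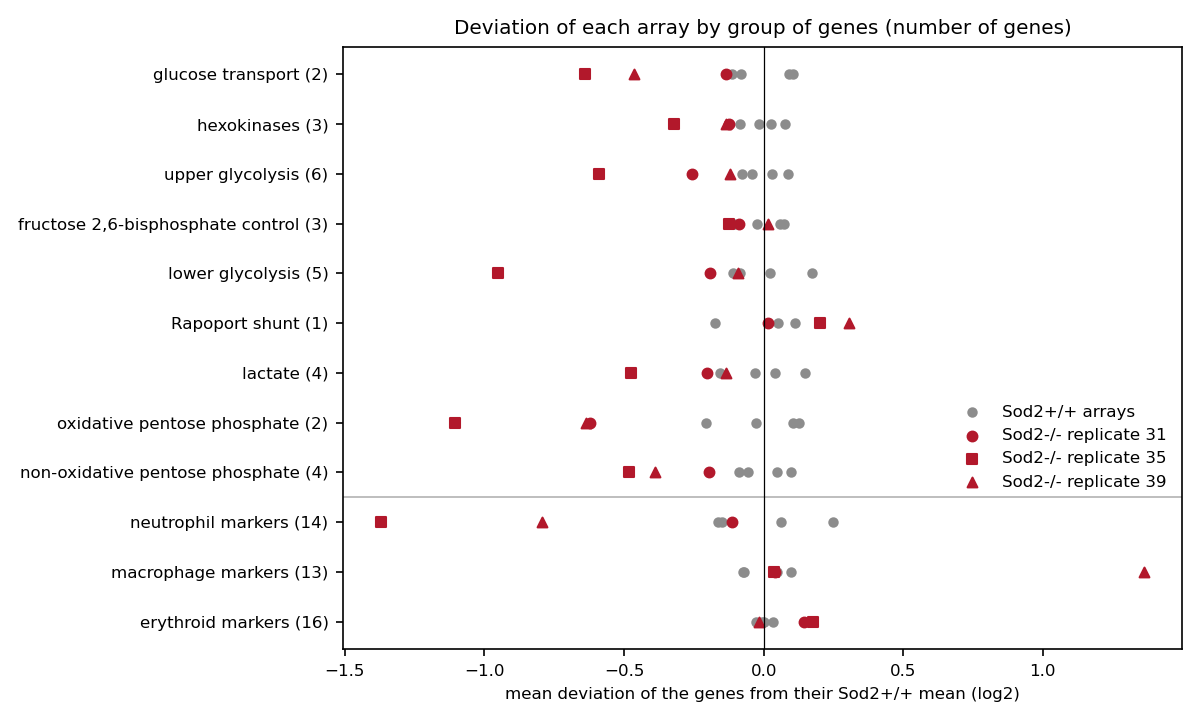
Mean deviation from the Sod2+/+ mean (log2, horizontal axis) of each array, by role of the listed genes (upper 9 lines) and for 3 lists of cell markers (lower lines), with the number of genes in brackets. Grey points are Sod2+/+ arrays, red symbols Sod2-/- replicates. Replicate 35 (square) is at -0.95 for lower glycolysis and at -1.37 for neutrophil genes, and all 3 Sod2-/- replicates lie at or below -0.62 for the oxidative pentose phosphate genes.

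Without Sod2-/- replicate 35, 0 of the 30 genes were called, as 0.352% of all genes then were lower, and the median log2 fold change was -0.17. Pgls then had -0.74 (adjusted p = 0.0788), Tpi1 -0.65 (adjusted p = 0.0672) and Pfkl -0.43 (adjusted p = 0.102), all with the same sign as before. Ldha went to -0.30, Aldoa to 0.11, Slc2a3 to -0.74 and Pgd to -0.51. Over all alternatives the adjusted p ran from 0.0120 to 0.543 for Pgls, from 0.0158 to 0.543 for Tpi1 and from 0.0245 to 0.630 for Pfkl, and the log2 fold changes from -1.06 to -0.54, from -1.20 to -0.63 and from -0.81 to -0.24.

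The arrays were processed on 2 fluidics stations and came from 2 chip lots. Within station 1 (Sod2+/+ replicates 17 and 29, Sod2-/- replicate 31) the median log2 fold change of the 30 genes was -0.13 and within station 2 (the other arrays) it was -0.36, with 0 calls in either and 0% of all genes called. Pgls had -1.06 and -0.61 in the 2 stations, Tpi1 -0.64 and -0.94 and Pfkl -0.36 and -0.66. With station as a block Pgls alone was called. All Sod2+/+ arrays and Sod2-/- replicate 35 shared a lot, so with lot as a block the fold change is that of replicate 35. The median log2 fold change of the 30 genes was then -0.36, against 0.03 for all genes. Pgls had -0.90, Tpi1 -1.20 and Pfkl -0.81. Calls are not given for this setting because the difference rests on that array alone. For Sod2-/- replicates 31 and 39, lot and genotype cannot be told apart.

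Gapdh, the dehydrogenase between the upper and lower parts of glycolysis, was read by control probe sets at the 3′ end, middle and 5′ end of its transcript. At the 3′ end its log2 signals were 11.21, 11.07, 11.02 and 11.17 in Sod2+/+ and 10.70, 10.15 and 10.78 in Sod2-/- samples. The genotypes did not overlap there, with a difference of -0.57 (exact two-sided permutation test p = 0.0286, the smallest that 4 against 3 arrays can give, 0.0914 after adjustment over 8 control items). The middle set differed by -0.51 (exact permutation p = 0.0286, adjusted 0.0914) and the 5′ set by -0.39 (exact permutation p = 0.0857, adjusted 0.114). Replicate 35 was lowest at all 3 positions. The drop from 3′ to 5′, a sign of RNA integrity, was 1.32 ± 0.10 (SD, n = 4 Sod2+/+ arrays) and 1.14 ± 0.06 (SD, n = 3 Sod2-/- arrays) for Gapdh (exact permutation p = 0.0571). For beta-actin, the other control transcript, it was 0.75 ± 0.09 and 0.72 ± 0.05 (exact permutation p = 0.800). The genotypes did not overlap either, with Sod2-/- lower, at the beta-actin 3′ end (13.00 to 13.04 against 13.09 to 13.25) and middle (12.54 to 12.59 against 12.67 to 12.88). These sets differed by -0.14 and -0.20 (exact permutation p = 0.0571 each). The beta-actin 5′ set differed by -0.12 with overlap (exact permutation p = 0.229). Further sets that Gapdh shares with pseudogene copies gave -0.36, -0.08 and 0.36, none of them called by limma.

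**Figure D4:**
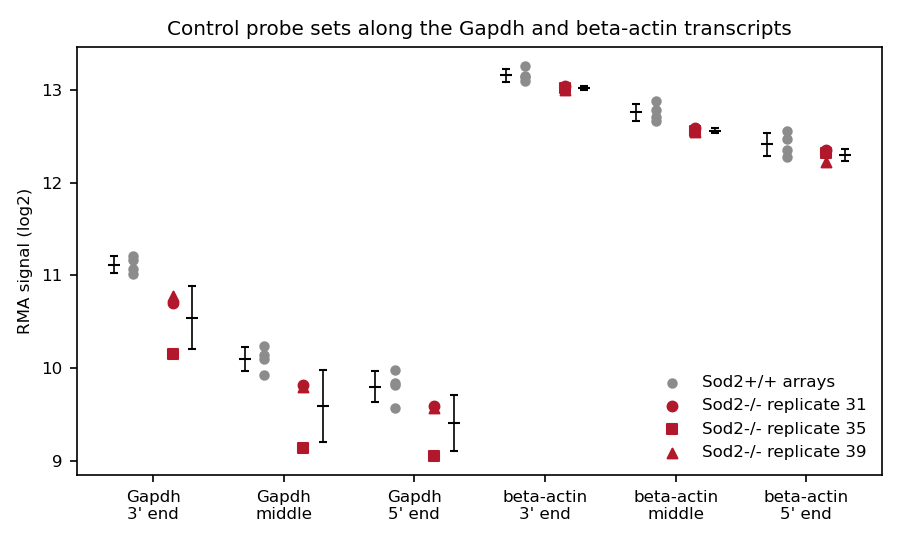
RMA signal (log2, vertical axis) of the control probe sets along the Gapdh and beta-actin transcripts on each array, grey for Sod2+/+ and red for Sod2-/- replicates, with mean and SD beside the points. The Sod2-/- points of Gapdh at the 3′ end, 10.15 to 10.78, lie below the Sod2+/+ points, 11.02 to 11.21. Those of beta-actin at the 3′ end, 13.00 to 13.04, also lie below the Sod2+/+ points, 13.09 to 13.25.

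Of 54 other genes of sugar metabolism (gluconeogenesis, glycogen, pentose side paths, glycerol phosphate and pyruvate entry), 47 were measured. Among these, 2 were called lower and 0 higher, against 4.47% and 0.412% of all genes, and the median log2 fold change was 0.01. Without adjustment 11 were lower and 6 higher at p under 0.05, against 3352 and 1215 of the 18193 genes. Gpd1l, a glycerol phosphate dehydrogenase homolog, had -0.58 (SE 0.12, adjusted p = 0.0405), and Dera, the deoxyribose phosphate aldolase that feeds pentose carbon to glycolysis, had -0.41 (SE 0.09, adjusted p = 0.0462). Both had separate groups. Pck2, a phosphoenolpyruvate carboxykinase, went the other way and was not called (0.70, SE 0.17, adjusted p = 0.0612), the highest log2 fold change of the 47. Its log2 signals were 9.14 to 9.72 in Sod2+/+ and 9.78 to 10.29 in Sod2-/- samples, without overlap. The study also reports higher Pck2 expression in Sod2-/- cells. Without Sod2-/- replicate 31, 1 gene of this list was called lower. The count called lower was 0 without any other single array, with quantile normalization or by the methods' t-test. A gene of this list was called higher, 1 in each case, without Sod2+/+ replicate 17, with quantile normalization and with trend and robust estimation. The same held among bright probe sets alone and with station as a block.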

How the data were processed

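Total RNA from 7 samples of sorted erythroblasts was hybridised to Affymetrix arrays of the whole mouse transcriptome. The deposited log2 values were made by the authors with RMA, and the submitters' processing notes also name GCOS 1.3.037. Whether the array not analysed here took part in that run is not stated. Text settings deposited with each array gave the chip lot and the fluidics station.

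The 64 control probe sets were left out. Genotypes were compared over the rest with lmFit and eBayes of limma 3.58.1 (R 4.3.3), genotype alone in the model, no filter on signal and Benjamini-Hochberg adjustment over all 45037 and a threshold of 0.05. Every adjusted p is from this fit unless an alternative or a permutation test is named beside it. Across lists only counts, medians, mean deviations from the Sod2+/+ mean and summed linear signals were computed, with no test. For control probe sets an exact permutation test, two-sided, was used. The number of arrays limits the precision. The p-values measure the spread between these arrays, some of which may be technical.

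Members and lists were chosen with earlier results of these data known. The lists are roles of the members, 54 other genes of sugar metabolism and markers of erythroid, neutrophil, B, T and NK, macrophage, megakaryocyte, and eosinophil and mast cells. Every member is named, with values for each array where it was called, among the 6 of highest signal or among the 6 largest differences of the rest. Of each other list up to 3 called genes, or the 2 largest differences, are named, and Pck2 is added because the study reports it.

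The alternatives were the methods' t-test with equal variances, a trend with robust estimation in eBayes, weights per array (statmod 1.5.0), quantile normalization, centring on array medians, an offset of 32 on the linear scale, probe sets above the median log2 value of 4.48 alone, station and lot as blocks or alone, the mean of a gene's probe sets, and leaving out each array. Python 3.11.15 and matplotlib 3.10.9 made the figures. Identities between member proteins were not computed.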

Additional observations from a re-analysis of the deposited data

How the results depend on the processing

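The number of genes called lower, 3 as reported, was 0 with the methods' t-test, with an offset of 32 and within either fluidics station. It was 1 with quantile normalization and with station as a block, 5 among bright probe sets alone (28 genes of the list), 8 with chip lot as a block and 9 within the lot of the Sod2+/+ arrays. Leaving out each array in turn gave 0 to 5: 0 without Sod2+/+ replicate 29, without Sod2+/+ replicate 37 and without Sod2-/- replicate 35, 1 without Sod2+/+ replicate 17 and 5 without Sod2-/- replicate 31. The share of all genes called lower moved too, from 0.352% without Sod2-/- replicate 35 to 11.1% among bright probe sets, and was 0.011% with the methods' t-test. No alternative called a gene of the list higher.

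The median log2 fold change, -0.30 as reported, was -0.14 with quantile normalization, -0.21 with the offset and -0.13 within station 1. It ran from -0.34 (without Sod2-/- replicate 31) to -0.17 (without Sod2-/- replicate 35) when single arrays were left out, and was below 0 in all 20 alternatives. Of 598 values of single genes under these alternatives 525 kept their side of the threshold and direction, 30 lost a call, 18 gained one and 25 that were not called changed sign. The causes were not tested, apart from the fewer arrays or probe sets that some alternatives hold. No paired analysis was possible because the labels do not say which arrays came from the Sod2+/+ and Sod2-/- samples that were sorted in parallel, and the genotypes share no replicate number.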
